A study of Homo sapiens with 12 samples.

Results

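The genes described here are 35 human genes of the amino acid arm of the ATF4 response, taken from the 17958 genes with a value on the arrays. They comprise 7 transcription factors and regulators, 4 stress effectors, 8 enzymes of amino acid synthesis and one-carbon metabolism, 6 amino acid transporters and 10 cytosolic aminoacyl-tRNA synthetases. Members were chosen by symbol: a probe set had to name exactly 1 gene, and where a gene had several such probe sets the one of highest mean signal on the 12 arrays was used. All 35 members were measured, 31 of them by a single such probe set.

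RNA came from 231BR cells and was hybridised to single-colour Affymetrix arrays, whose deposited log2 signals are used throughout. The 231BR line was derived from MDA-MB-231, a human breast cancer line, for its growth in brain, and here it carried EGFP. The 4 groups of 3 arrays were estradiol with astrocytes (10 nM estradiol, co-cultured with mouse astrocytes), estradiol alone (10 nM estradiol, no astrocytes), vehicle with astrocytes (co-cultured with mouse astrocytes) and vehicle alone (no astrocytes). All groups share the 1 parental line and the EGFP label, and the human cells were sorted after 24 h of co-culture. No sorting is described here for cells grown alone, and any part of sorting in the astrocyte comparisons was not tested. The question named in the series title is a paracrine one, of estrogen reaching the tumour cells through astrocytes. Whether the replicates were separate cultures is not given in the labels, so p-values measure a spread between arrays that may be technical.

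ATF4 is a transcription factor whose mRNA is translated more efficiently when the initiation factor eIF2 is phosphorylated, for example by GCN2, a kinase that senses uncharged tRNA. It then raises transcription of enzymes that make asparagine, serine, glycine and cysteine, of transporters that import amino acids, and of the synthetases that load amino acids onto tRNA. Many of its targets carry a composite element bound by ATF4 with a C/EBP protein, and DDIT3, TRIB3 and CHAC1 belong to the later, stress-related part of the response.

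Of the astrocyte arrays, 2 differed most from the arrays of cells alone. The SD of the log2 values over all probe sets was 2.10, 1.62 and 1.96 in estradiol with astrocytes, 2.20, 2.12 and 2.18 in estradiol alone, 2.04, 1.82 and 1.95 in vehicle with astrocytes, and 2.22, 2.18 and 2.04 in vehicle alone, in the order of replicates 1, 2 and 3. Replicate 2 of each astrocyte group had the narrowest range of its group, and these are the 2 arrays of narrow range named below. Replicate 2 of estradiol with astrocytes correlated with the arrays of cells alone at 0.558 to 0.674, and replicate 2 of vehicle with astrocytes at 0.832 to 0.905. Replicate 3 was at 0.903 to 0.945 with estradiol and 0.886 to 0.934 with vehicle, and replicate 1 at 0.964 to 0.977 and 0.961 to 0.982. The astrocyte arrays thus formed a gradient, and leaving out replicate 2 does not remove all of it. Results are therefore given with all arrays and, where they differ, without these 2 arrays or with the array SD as a covariate.

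Co-culture with astrocytes was accompanied by lower signals of ATF4-linked stress genes, of 2 enzymes, of 2 transporters and of 5 tRNA synthetases. Among genes above the median level, 43.8% of the members and 37.5% of all genes fell. With the 6 astrocyte arrays set against the 6 arrays of cells alone, 15 members fell and 1, ATF5, rose (limma, Benjamini-Hochberg adjusted p under 0.05 over all 17958 genes). Those that fell were ATF4, CEBPB and DDIT3, the effectors DDIT4, CHAC1 and VLDLR, the enzymes ASNS and CTH, the transporters SLC7A1 and SLC38A2, and the synthetases GARS1, WARS1, EPRS1, CARS1 and IARS1. Lower calls made up 42.9% of the members and 23% of all genes, and higher calls 2.86% of the members and 24.5% of all genes. The median log2 difference was -0.74 over the members and 0.07 over all genes. In bulk samples, fewer cells of a type and less RNA per cell cannot be told apart.

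The share of lower calls has to be read against the level of the genes. Of the 32 members whose mean lay above that of the median gene, 14 fell (43.8%), and of all 8979 genes above that level 37.5% fell. The medians of these genes were -0.77 for members and -0.48 for all. In a fit of those genes alone, 12 of the 32 members fell (37.5%), against 35.2% of all. Among genes of such levels the members' share of lower calls was thus near the background in both counts.

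The range of signal differed with culture, so the counts are also given with it in the fit. With the array SD as a covariate, 7 members fell (20%, against 5.82% of all genes) and none rose (8.57% of all genes did), and the member median was 0.02. These 7 were DDIT3, DDIT4, VLDLR, CHAC1, ASNS, CTH and CARS1. Without replicate 2 of both astrocyte groups, 17 members fell (48.6%, against 21.6% of all genes) and ATF5 rose (23.2% of all genes did), and the member median was -0.28. After quantile normalization 11 members fell (31.4%, against 16.1% of all genes) and 3 rose (8.57%, against 16.3% of all genes), and the member median was -0.36. Leaving out single arrays gave between 12 calls (without replicate 1 of vehicle alone or replicate 2 of vehicle with astrocytes) and 24 calls (without replicate 1 of estradiol with astrocytes). Shares in this paragraph cover genes of all levels, and none is given for genes above the median level in these fits. For the fits without single arrays no share of all genes is set beside the calls.

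**Figure D1:**
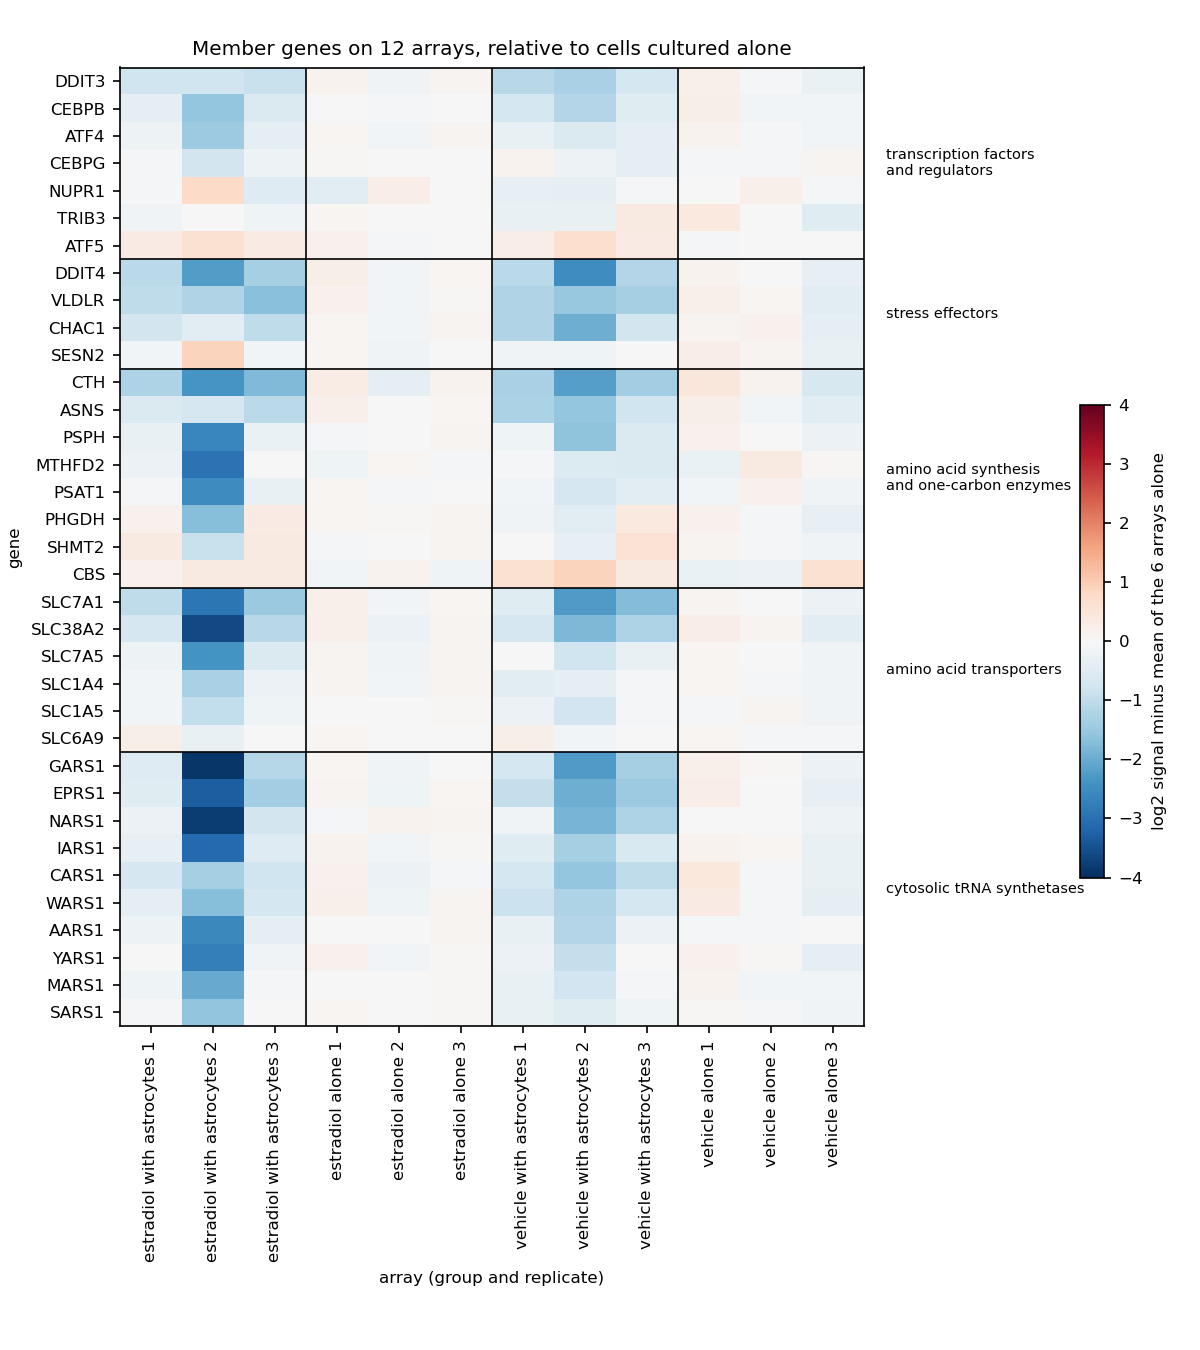
Log2 signal of each member (rows, by role) on each of the 12 arrays (columns), minus the mean of the 6 arrays of cells alone, in log2 units with blue for lower and red for higher. Replicate 2 of estradiol with astrocytes is the bluest column, with 23 members more than 1 log2 unit below cells alone.

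Array by array, the member median relative to cells alone was -0.20, -1.59 and -0.36 in estradiol with astrocytes and 0.09, -0.05 and 0.07 in estradiol alone. It was -0.29, -0.95 and -0.42 in vehicle with astrocytes, against 0.13, -0.01 and -0.22 in vehicle alone. All 6 astrocyte arrays thus had a negative member median, and the 2 replicates with a narrow range had the lowest. More than 1 log2 unit below cells alone were 4, 23 and 9 members in estradiol with astrocytes and 6, 17 and 9 in vehicle with astrocytes, and none on any array of cells alone.

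Promoter sequences of the members that fell are shown because the composite element is how ATF4 is known to reach its targets. The letters TGATGNAA were searched on both strands, as TGATGNAA and TTNCATCA, from 250 bases before to 50 bases after each RefSeq gene start (GRCh38.p14). Of the 31 members with a window, 12 held it (38.7%), against 4.46% of the 27305 genes with one. By window, 12 of the 49 member windows (24.5%) and 3.62% of all 35116 held it. The members were chosen as genes of the ATF4 response, and many ATF4 targets carry this element. An excess over all genes could thus be foreseen from that choice and is no result of the arrays. The element was present in 6 of the 15 members that fell (40%), in 6 of the 15 that were not called (40%), and it was not in the window of ATF5. Promoters of PSPH, SHMT2, NUPR1 and YARS1 were not analysed here. The element's letters are in capitals in the 6 members that fell, 5′ to 3′ on the strand of the gene, with up to 30 bases on either side.
ASNS promoter, chr7:97872439-97872506, minus strand: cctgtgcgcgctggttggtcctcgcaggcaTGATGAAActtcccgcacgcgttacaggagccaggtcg
CHAC1 promoter, chr15:40953232-40953299, plus strand: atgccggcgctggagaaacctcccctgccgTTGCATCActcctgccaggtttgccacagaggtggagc
SLC7A1 promoter, chr13:29595659-29595711, minus strand: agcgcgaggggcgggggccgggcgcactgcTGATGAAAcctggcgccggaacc
CARS1 promoter, chr11:3057394-3057455, minus strand: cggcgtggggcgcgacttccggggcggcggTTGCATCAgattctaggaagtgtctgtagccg
GARS1 promoter, chr7:30594815-30594882, plus strand: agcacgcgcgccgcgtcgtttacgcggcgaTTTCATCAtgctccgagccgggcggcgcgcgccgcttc
IARS1 promoter, chr9:92293673-92293740, minus strand: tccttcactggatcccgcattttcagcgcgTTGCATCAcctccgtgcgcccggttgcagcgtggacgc

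Counted from the gene start, with negative positions before it, the element began at -68 in ASNS, -209 in CHAC1, -33 in GARS1, -13 in IARS1, -2 in CARS1 and 8 in SLC7A1. CEBPG, SLC1A4, SLC1A5, AARS1, NARS1 and MARS1 held it and were not called. A match is a description and not a bound site, and the share with a match was the same for members that fell and members that were not called.

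Among the transcription factors and regulators, 3 of 7 fell and 1 rose in the pooled comparison, with a median of -0.24. Lower calls were 42.9% of this role and 23% of all genes, and higher calls 14.3% and 24.5%. Above the median level lower calls were 50% of the role and 37.5% of all genes. DDIT3, which encodes the pro-apoptotic factor CHOP, had log2 signals of 6.41, 6.40 and 6.30 in estradiol with astrocytes, against 7.33, 7.05 and 7.32 in estradiol alone. It had 6.08, 5.90 and 6.51 in vehicle with astrocytes, against 7.40, 7.16 and 6.93 in vehicle alone. The 6 astrocyte arrays lay below all 6 arrays of cells alone, and the 2 arrays with a narrow range did not stand apart within their groups for this gene. The pooled difference was -0.94 ± 0.15 (SE; 1.91-fold lower, adjusted p = 0.00355), and it was -0.82 with the array SD as a covariate (adjusted p = 0.0112) and -0.38 after quantile normalization (adjusted p = 0.12).

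ATF4 itself had 8.87, 7.63 and 8.71 in estradiol with astrocytes, against 9.14, 8.96 and 9.18 in estradiol alone. In vehicle with astrocytes it had 8.78, 8.49 and 8.68, against 9.20, 8.99 and 8.97 in vehicle alone. Astrocyte arrays did not overlap those of cells alone, and replicate 2 of estradiol with astrocytes was the lowest of the 12 arrays. The pooled difference of -0.55 ± 0.20 passed narrowly (adjusted p = 0.0448). The call ended when any of 9 of the 12 arrays was left out, namely every array of cells alone and every array of vehicle with astrocytes (adjusted p up to 0.0997), and the difference was 0.02 with the array SD as a covariate and -0.09 after quantile normalization (adjusted p = 0.48). A second ATF4 probe set averaged 6.84 in both astrocyte groups and 6.80 in both groups alone, a difference of 0.04, so the 2 probe sets disagreed.

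CEBPB, a C/EBP factor that can pair with ATF4, had 7.60, 6.39 and 7.38 in estradiol with astrocytes, against 7.94, 7.90 and 7.97 in estradiol alone. It had 7.24, 6.78 and 7.45 in vehicle with astrocytes, against 8.20, 7.85 and 7.83 in vehicle alone. Astrocyte arrays and arrays alone did not overlap, and replicate 2 was the lowest in both astrocyte groups. Its pooled difference was -0.81 ± 0.21 (adjusted p = 0.0137), and it was -0.22 with the array SD as a covariate (adjusted p = 0.347) and -0.29 after quantile normalization (adjusted p = 0.0666).

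ATF5, a factor related to ATF4 that is itself induced in this response, was the only member called higher. It had 5.49, 5.77 and 5.48 in estradiol with astrocytes, against 5.33, 5.11 and 5.17 in estradiol alone. It had 5.43, 5.82 and 5.48 in vehicle with astrocytes, against 5.10, 5.13 and 5.14 in vehicle alone. All 6 astrocyte arrays lay above the 6 others, with replicate 2 the highest in both groups. The pooled difference was 0.41 ± 0.13 (adjusted p = 0.0244). The call ended with the array SD as a covariate (adjusted p = 0.246) and without replicates 2 or 3 of estradiol alone, 1 or 2 of vehicle alone, or 2 of vehicle with astrocytes (adjusted p up to 0.0586). CEBPG, a C/EBP partner of ATF4, NUPR1, a stress-induced chromatin protein, and TRIB3, a pseudokinase that restrains ATF4, did not pass, with pooled differences of -0.24, -0.09 and -0.09.

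Of the 4 stress effectors 3 fell (75%, against 23% of all genes), and their median was -1.16. Above the median level the share was 66.7%, against 37.5% of all genes there. VLDLR, a lipoprotein receptor, had 4.70, 4.51 and 4.06 in estradiol with astrocytes, against 5.90, 5.60 and 5.78 in estradiol alone. It had 4.52, 4.21 and 4.39 in vehicle with astrocytes, against 5.91, 5.81 and 5.30 in vehicle alone. The astrocyte arrays lay below the others with a gap, and the pooled difference of -1.31 ± 0.16 (2.49-fold lower, adjusted p = 0.00216) was -1.14 with the array SD as a covariate and -1.29 without both arrays of narrow range. Its values with astrocytes were near the medians of all probe sets on those arrays, 4.49 to 4.77, so its fold size rests on low signals.

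DDIT4, an inhibitor of mTORC1 also called REDD1, had 7.01, 5.85 and 6.78 in estradiol with astrocytes, against 8.32, 7.99 and 8.19 in estradiol alone. It had 7.01, 5.61 and 6.93 in vehicle with astrocytes, against 8.23, 8.09 and 7.77 in vehicle alone. Replicate 2 was the lowest in both astrocyte groups, and no astrocyte array reached the arrays of cells alone. Its pooled difference was -1.57 ± 0.27 (2.97-fold lower, adjusted p = 0.00412), -1.17 without both arrays of narrow range and -0.81 with the array SD as a covariate (adjusted p = 0.0200).

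CHAC1, which degrades glutathione, had 5.41, 5.71 and 5.10 in estradiol with astrocytes, against 6.20, 6.03 and 6.25 in estradiol alone. It had 4.93, 4.19 and 5.38 in vehicle with astrocytes, against 6.23, 6.30 and 5.76 in vehicle alone. With and without astrocytes the values did not overlap, and replicate 2 was the highest of its group with estradiol and the lowest with vehicle. The pooled difference was -1.01 ± 0.21 (adjusted p = 0.00631), and after quantile normalization it was -0.74 (adjusted p = 0.0519). SESN2, an inhibitor of mTORC1 signalling, had a pooled difference of 0.06 and overlapping groups, with replicate 2 of estradiol with astrocytes at 7.19 above every other array.

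**Figure D2:**
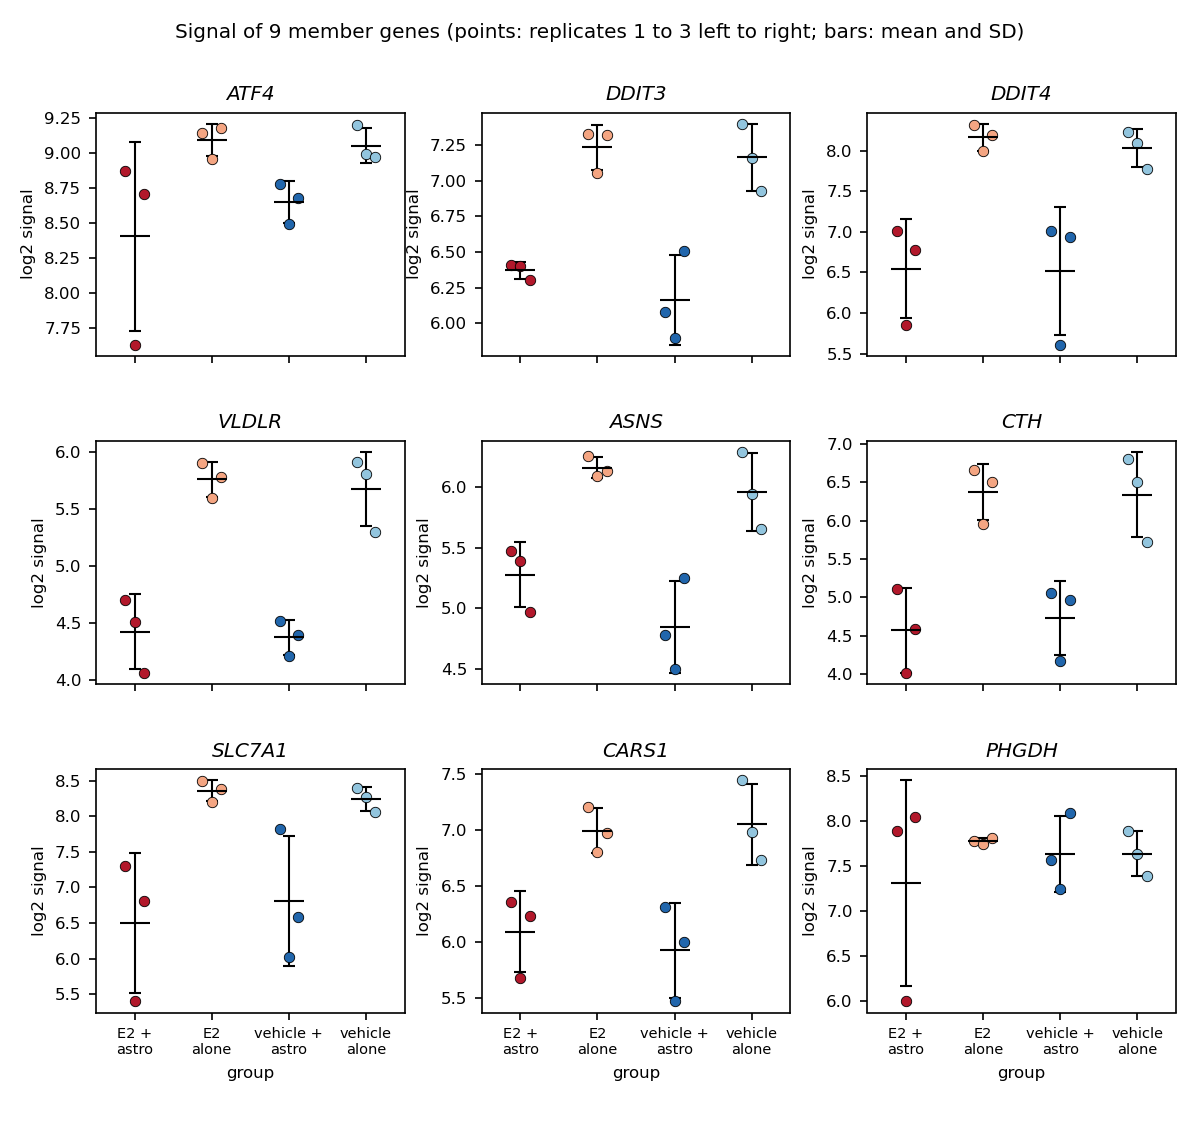
Log2 signal of 9 members on each array, in panels by gene with the 4 groups along the horizontal axis (E2 for estradiol, astro for astrocytes); points are replicates 1 to 3 from left to right and bars the mean and SD. DDIT3, VLDLR and ASNS are low on all 6 astrocyte arrays, while PHGDH is low on replicate 2 of estradiol with astrocytes, at 6.0.

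Of the 8 enzymes, CTH and ASNS fell (25%, against 23% of all genes) and the other 6 did not pass. Above the median level the share was 28.6%, against 37.5% of all genes there. CTH, which makes cysteine from cystathionine, had 5.11, 4.01 and 4.58 in estradiol with astrocytes, against 6.66, 5.96 and 6.50 in estradiol alone. It had 5.05, 4.17 and 4.97 in vehicle with astrocytes, against 6.80, 6.50 and 5.72 in vehicle alone. Astrocyte arrays and arrays of cells alone did not overlap, and its pooled difference of -1.71 ± 0.26 (3.27-fold lower, adjusted p = 0.0033) had the largest size among the members. It was -0.98 with the array SD as a covariate (adjusted p = 0.00851).

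ASNS, asparagine synthetase, had 5.47, 5.39 and 4.97 in estradiol with astrocytes, against 6.26, 6.09 and 6.13 in estradiol alone. It had 4.78, 4.50 and 5.25 in vehicle with astrocytes, against 6.29, 5.94 and 5.65 in vehicle alone. Every astrocyte array lay below every array of cells alone. Pooled, the difference was -1.0 ± 0.17 (2.00-fold lower, adjusted p = 0.00415), -0.95 without both arrays of narrow range and -0.87 with the array SD as a covariate.

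The serine and one-carbon enzymes differed from these 2 in how they varied over the arrays. PHGDH, which starts serine synthesis, had 7.89, 6.0 and 8.05 in estradiol with astrocytes, against 7.78, 7.75 and 7.81 in estradiol alone. It had 7.57, 7.25 and 8.09 in vehicle with astrocytes, against 7.89, 7.64 and 7.39 in vehicle alone. Outside replicate 2 its values overlapped those of cells alone, and the pooled difference was -0.23 with all arrays and 0.19 without both arrays of narrow range.

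MTHFD2, a mitochondrial folate enzyme, had 8.04, 5.32 and 8.25 in estradiol with astrocytes, against 8.12, 8.35 and 8.19 in estradiol alone. It had 8.20, 7.72 and 7.70 in vehicle with astrocytes, against 8.02, 8.64 and 8.34 in vehicle alone. Its lowest value was on replicate 2 of estradiol with astrocytes, and its pooled difference was -0.74 (adjusted p = 0.151) with all arrays and -0.23 without both arrays of narrow range. PSAT1 and PSPH, the next steps of serine synthesis, had pooled differences of -0.68 and -0.93 with all arrays, and of -0.23 and -0.34 without both arrays of narrow range. Second probe sets of MTHFD2 and PSPH were at -0.85 and -1.34 with all arrays. SHMT2, which turns serine into glycine, had 0.02 (0.37 after quantile normalization, adjusted p = 0.0366) and CBS, which makes cystathionine, had 0.45 (adjusted p = 0.0539).

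Of the 6 transporters, SLC7A1 and SLC38A2 fell (33.3%, against 23% of all genes). All 6 lay above the median level, where 37.5% of all genes fell. SLC7A1, which imports arginine and lysine, had 7.30, 5.40 and 6.81 in estradiol with astrocytes, against 8.49, 8.20 and 8.38 in estradiol alone. It had 7.82, 6.03 and 6.58 in vehicle with astrocytes, against 8.40, 8.27 and 8.06 in vehicle alone. All astrocyte arrays lay below all arrays of cells alone, and the pooled difference was -1.64 ± 0.34 (adjusted p = 0.00661), or -0.60 with the array SD as a covariate (adjusted p = 0.0759).

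SLC38A2, which imports small neutral amino acids and is induced by their lack, had 9.37, 6.44 and 8.93 in estradiol with astrocytes, against 10.25, 9.81 and 10.16 in estradiol alone. It had 9.39, 8.26 and 8.80 in vehicle with astrocytes, against 10.32, 10.17 and 9.59 in vehicle alone. No astrocyte array reached the lowest array of cells alone. Pooled, the difference was -1.52 ± 0.43 (adjusted p = 0.0176), -0.93 without both arrays of narrow range and -0.09 with the array SD as a covariate (adjusted p = 0.745). SLC7A5, which imports large neutral amino acids, and SLC1A4, SLC1A5 and SLC6A9, which carry small neutral amino acids, glutamine and glycine, had pooled differences of -0.72, -0.43, -0.39 and 0.01, and none passed. After quantile normalization SLC6A9 was at 0.55 (adjusted p = 0.0169). A second SLC1A5 probe set, of lower signal (5.30 with astrocytes and 5.24 alone), was at 0.06 and so disagreed with the first.

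All 10 cytosolic synthetases had negative pooled differences, from -1.64 to -0.43 with a median of -0.97, and 5 of them fell (50%, against 23% of all genes). All 10 lay above the median level, where 37.5% of all genes fell. After quantile normalization SARS1 was at 0.01. CARS1, which charges cysteine tRNA, had 6.36, 5.68 and 6.23 in estradiol with astrocytes, against 7.20, 6.80 and 6.97 in estradiol alone. It had 6.31, 5.47 and 6.0 in vehicle with astrocytes, against 7.44, 6.98 and 6.73 in vehicle alone. Its astrocyte arrays were all below the arrays of cells alone, and the pooled difference was -1.01 ± 0.20 (adjusted p = 0.00538). It was the only synthetase still called with the array SD as a covariate, at -0.51 (adjusted p = 0.0491).

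GARS1, which charges glycine tRNA, had 8.58, 5.20 and 7.96 in estradiol with astrocytes, against 9.17, 8.95 and 9.13 in estradiol alone. It had 8.40, 6.84 and 7.77 in vehicle with astrocytes, against 9.30, 9.14 and 8.88 in vehicle alone. Replicate 2 lay far below the other arrays in both astrocyte groups. The pooled difference was -1.64 ± 0.49 (adjusted p = 0.0206), -0.92 without both arrays of narrow range (adjusted p = 0.00537) and -0.04 with the array SD as a covariate. Its call ended without replicate 1 of vehicle alone or replicate 2 of vehicle with astrocytes (adjusted p up to 0.0551).

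EPRS1, the joint glutamate and proline synthetase, had 7.98, 5.16 and 7.08 in estradiol with astrocytes, against 8.58, 8.29 and 8.55 in estradiol alone. It had 7.5, 6.50 and 7.01 in vehicle with astrocytes, against 8.74, 8.47 and 8.12 in vehicle alone. Astrocyte arrays and arrays alone did not overlap, with replicate 2 the lowest in both astrocyte groups, and the pooled difference was -1.59 ± 0.39 (adjusted p = 0.0111). WARS1, for tryptophan, had 8.0, 6.70 and 7.70 in estradiol with astrocytes, against 8.60, 8.23 and 8.50 in estradiol alone. It had 7.55, 7.17 and 7.69 in vehicle with astrocytes, against 8.72, 8.33 and 8.0 in vehicle alone. Arrays with and without astrocytes overlapped by 1 array in 6 against 6, and its pooled difference was -0.93 ± 0.23 (adjusted p = 0.0111). With the array SD as a covariate EPRS1 and WARS1 were at -0.30 and -0.26 and did not pass.

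IARS1, for isoleucine, had 9.39, 6.62 and 9.20 in estradiol with astrocytes, against 9.87, 9.62 and 9.79 in estradiol alone. It had 9.25, 8.40 and 9.11 in vehicle with astrocytes, against 9.87, 9.81 and 9.43 in vehicle alone. Arrays with and without astrocytes again did not overlap, and replicate 2 was the lowest in both astrocyte groups. It differed by -1.07 ± 0.41 (adjusted p = 0.048), and its call ended in 9 of the 12 fits that left out an array, those without any array of cells alone or of vehicle with astrocytes (adjusted p up to 0.111). The synthetases that did not pass were NARS1, for asparagine, at -1.34 (adjusted p = 0.0515), AARS1, for alanine, at -0.80, YARS1, for tyrosine, at -0.68, MARS1, for methionine, at -0.56 and SARS1, for serine, at -0.43. With the array SD as a covariate, IARS1 and all 5 of these had positive differences, from 0.23 to 0.60.

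**Figure D3:**
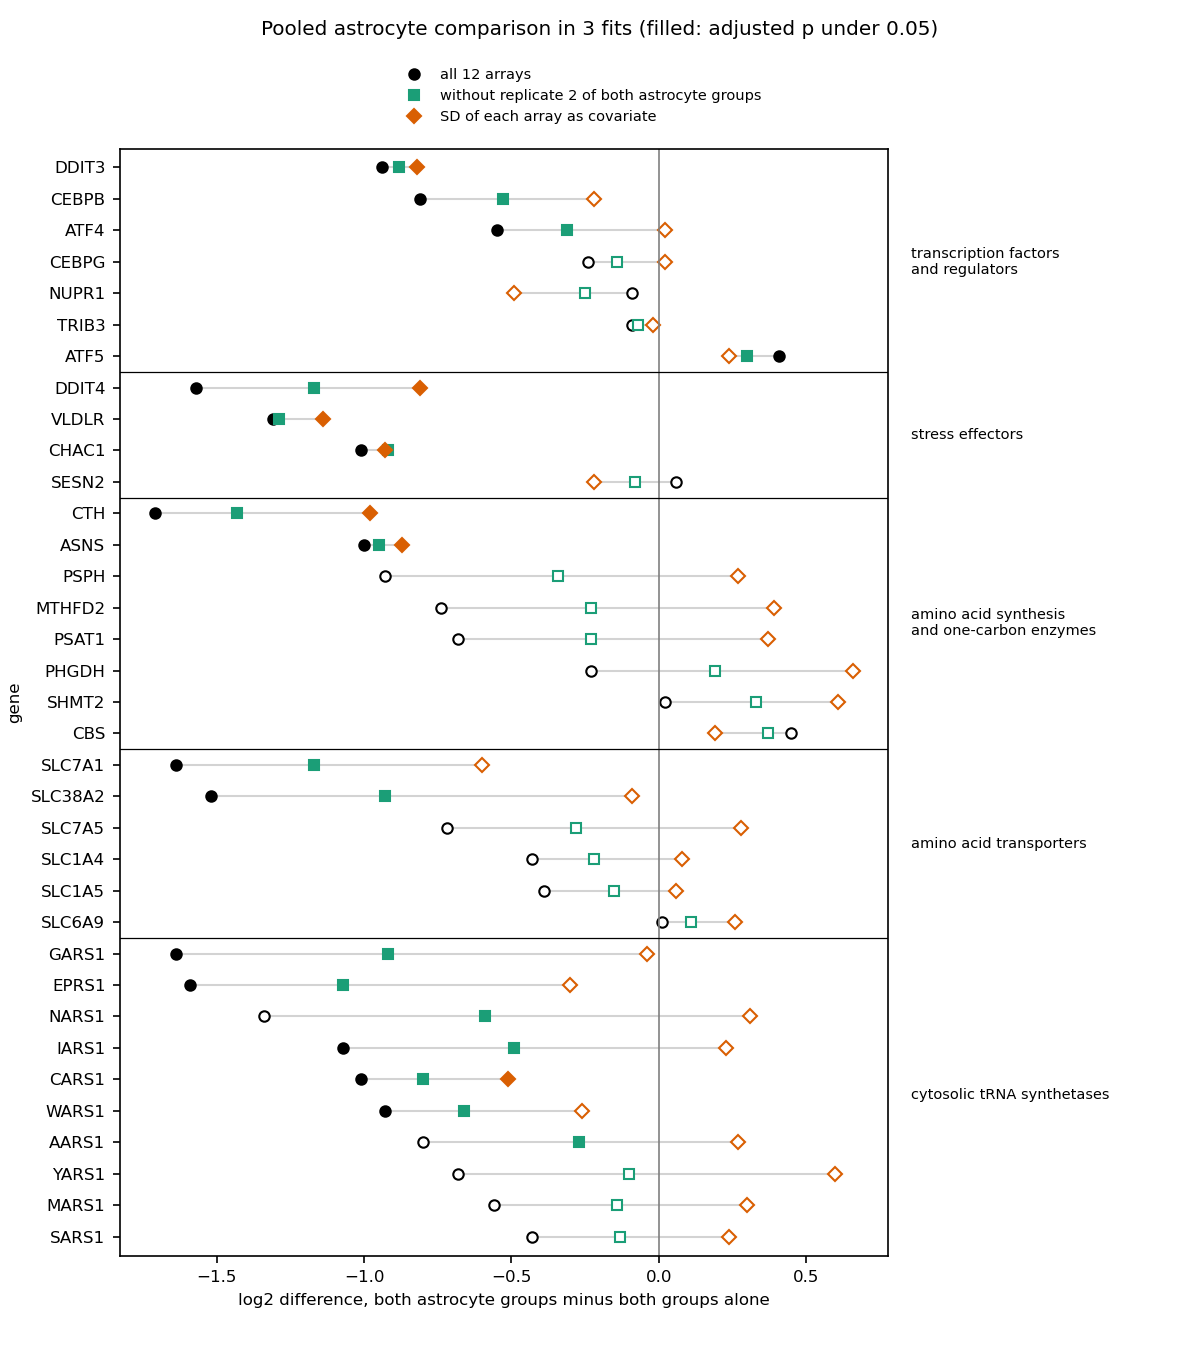
Pooled log2 difference of each member (both astrocyte groups minus both groups alone) with all 12 arrays (black circles), without replicate 2 of both astrocyte groups (green squares) and with the array SD as a covariate (orange diamonds), filled where the adjusted p was under 0.05. DDIT3, VLDLR, CHAC1 and ASNS keep nearly the same value in the 3 fits, while IARS1 moves to 0.23 with the covariate. VLDLR, CHAC1 and ASNS had low signals on the astrocyte arrays, which leave little room to fall.

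In 6 against 6 arrays, the astrocyte arrays lay wholly below the arrays of cells alone for 15 members, against 11.3% of all genes, and wholly above them for ATF5, against 12.2% of all genes. The other 19 members overlapped. These shares cover genes of all levels, as do those under estradiol and under vehicle below, and none is given for genes above the median level. The 15 were the members that fell with AARS1 in place of WARS1.

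Under estradiol, 6 members were lower with astrocytes than alone and none was higher: DDIT3, DDIT4, VLDLR, CTH, ASNS and SLC7A1. Lower calls covered 8.15% of all genes, and the member median was -0.88 against 0.07 for all genes. With the adjusted p in parentheses, the differences were -0.87 ± 0.21 for DDIT3 (0.0368), -1.62 ± 0.38 for DDIT4 (0.0359), -1.33 ± 0.23 for VLDLR (0.0294), -1.81 ± 0.37 for CTH (0.0333), -0.88 ± 0.25 for ASNS (0.0433) and -1.85 ± 0.49 for SLC7A1 (0.0402). The 3 arrays with astrocytes lay wholly below the 3 alone for 26 members, against 23.9% of all genes. They lay wholly above them for 2 members, ATF5 and CBS, and for 4850 of all 17958 genes.

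These 6 calls depended on single arrays. No member passed without any 1 of the 3 arrays of estradiol alone, without replicates 1 or 2 of vehicle alone, or without replicate 3 of estradiol with astrocytes. Without replicate 2 of estradiol with astrocytes only VLDLR passed, and without its replicate 1 there were 20 calls. Adjusted p depends on all genes of a fit, and no share of all genes is set beside these counts. Over the 12 fits without an array, the difference ran from -0.96 to -0.82 for DDIT3 and from -2.25 to -1.30 for SLC7A1. With the arrays of the 2 compared groups alone none passed, and the smallest adjusted p was 0.104. With the array SD as a covariate only VLDLR passed, at -1.14 (adjusted p = 0.0359, with 1.02% of all genes called lower), and the member median was -0.02. After quantile normalization only VLDLR (adjusted p = 0.0296) and CTH (0.0495) passed, against 1.78% of all genes, and the median was -0.40. There DDIT3 was at -0.22 (adjusted p = 0.527) and ASNS at -0.55 (0.156). With the replicate number as a block 15 members were lower, against 19.4% of all genes.

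Under vehicle, no member passed between co-culture and cells alone, in a comparison where 0.039% of all genes were called lower and 0.0167% higher (limma). At an unadjusted p under 0.05, 11 members were lower, against 15.1% of all genes, and 2, ATF5 and CBS, were higher. No share of all genes is given for the higher direction, so that count does not set the members apart. The smallest adjusted p among members was 0.072, for VLDLR at -1.30 ± 0.23. The member median was -0.46 against 0.06 for all genes, and the 3 arrays with astrocytes lay wholly below the 3 alone for 18 members, against 18.4% of all genes. They lay wholly above them for 1 member, ATF5, and for 4199 of all 17958 genes. Members passed without replicate 1 of estradiol with astrocytes (7), its replicate 2 (16) or replicate 1 of vehicle with astrocytes (8), and with the arrays of the 2 compared groups alone 10 passed. For these counts, too, no share of all genes is given. With the array SD as a covariate 7 were lower, against 2.39% of all genes, and the median was 0.08. These were VLDLR (adjusted p = 0.0188), DDIT3 (0.0276), CTH (0.0282), ASNS (0.0328), CHAC1 (0.0372), DDIT4 (0.0445) and CARS1 (0.0456). There were 9 lower with the replicate block, against 9.22% of all genes, and 9 without both arrays of narrow range, against 2.67%. With 3 arrays on each side, the smallest two-sided p of an exact permutation test is 0.1.

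**Figure D4:**
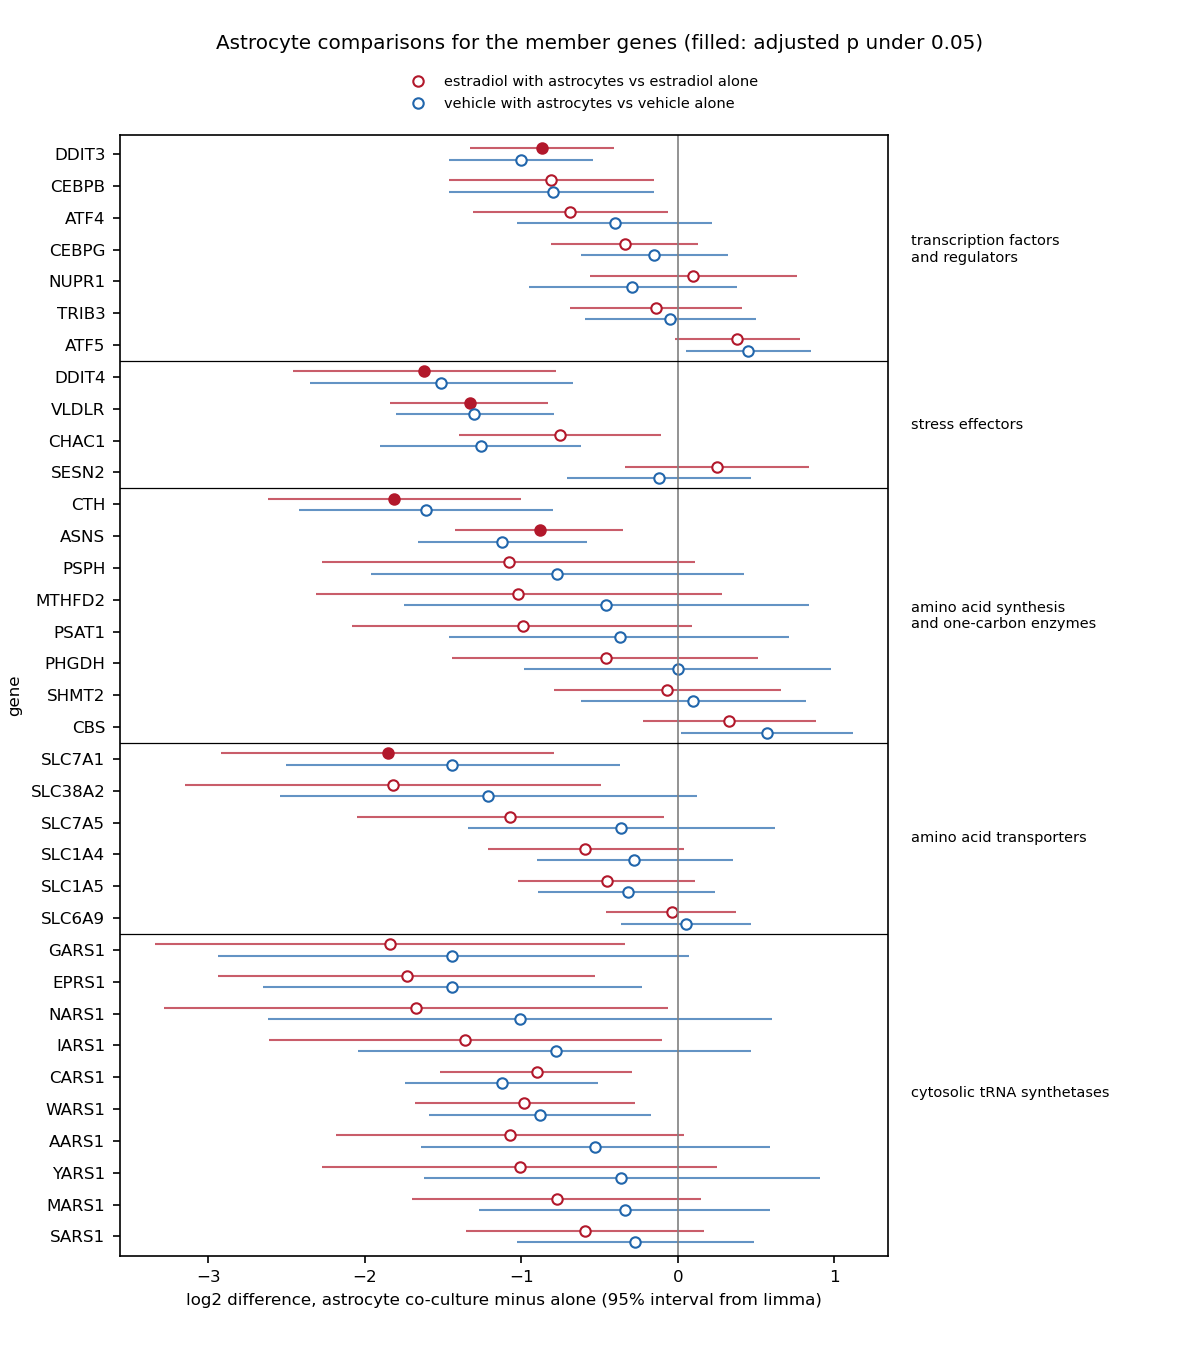
Log2 difference of each member between co-culture and cells alone, under estradiol (red) and under vehicle (blue), with 95% intervals from limma and filled points where the adjusted p was under 0.05. The 6 filled points are all under estradiol, and the intervals of the 2 comparisons overlap for every member.

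The astrocyte comparisons under estradiol and under vehicle come from 1 fit with a shared estimate of the spread, and the pooled comparison is their mean, so the 3 share arrays. The difference between them was itself tested, and no member passed. The smallest unadjusted p was 0.246, for CHAC1 at 0.51 (95% interval -0.40 to 1.42), and 0.173% of all genes had an unadjusted p under 0.05. For ATF4 the difference between the astrocyte effects was -0.28 (-1.17 to 0.60), for DDIT3 0.13 (-0.52 to 0.79), for ASNS 0.24 (-0.53 to 1.00) and for VLDLR -0.04 (-0.75 to 0.68). These intervals bound the differences and do not show that the effects were equal. The share of 0.173% is far below what a threshold of 0.05 gives by chance, so these p-values may be too large.

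Estradiol was also compared with vehicle within each culture. With astrocytes no member passed, none had an unadjusted p under 0.05 (limma; 0.791% of all genes did), and the smallest was 0.0748, for CHAC1 at 0.58 (-0.07 to 1.22). The member median was -0.24, and 0.27 without replicate 2 of estradiol with astrocytes. Of the 35 members only CBS had groups that did not overlap, at -0.32 (-0.87 to 0.23), and 0.819% of all genes lay wholly lower. The share of 0.791% is also below what a threshold of 0.05 gives by chance, so p-values here may be too large.

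In cells alone all 35 members overlapped between estradiol and vehicle, and the median was 0.05. None had an unadjusted p under 0.05, as 0.00557% of all genes did, and the smallest was 0.439, for ASNS at 0.20 (-0.34 to 0.74). The difference was 0.04 for ATF4 (-0.59 to 0.66), 0.07 for DDIT3 (-0.39 to 0.53) and 0.08 for VLDLR (-0.42 to 0.59). The share of 0.00557% is far below what a threshold of 0.05 gives by chance. The spread was estimated over all groups. For ATF4 the SE was 0.29, with SDs of 0.12 in estradiol alone and 0.13 in vehicle alone. DDIT3 (SE 0.21, SDs 0.16 and 0.24) and VLDLR (0.23, 0.15 and 0.33) were closer. The p-values here may thus be too large, and the lack of calls does not show that estradiol had no effect.

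Other genes of the pathway were read from lists outside the 35 members in the same pooled comparison, where 23% of all genes and 37.5% of those above the median level fell. Of 14 genes of eIF2 and its control, 5 fell and none rose, with a median of -0.76: PPP1R15A, a phosphatase subunit induced by ATF4, was at -1.04 (adjusted p = 0.0033), and the eIF2 kinases EIF2AK3 (PERK), EIF2AK4 (GCN2) and EIF2AK2 (PKR) were at -1.34, -1.44 and -2.26, with PPP1R15B as the fifth. Of 23 other ATF4 targets, 9 fell and 3 rose, among them SLC7A11, the cystine importer, at -2.75, KLHL24 at -1.45, the cytokine gene GDF15 at -0.98 and the taurine carrier SLC6A6 at -1.05. Of 15 mitochondrial synthetases 7 fell, with IARS2 at -1.38, AARS2 at -0.53, LARS2 at -0.71 and MARS2 at -0.57. Of the 10 measured genes among the other cytosolic synthetases and their scaffold 1 fell, LARS1 at -1.77, and 9 were negative. The shares that fell in these lists were 35.7%, 39.1%, 46.7% and 10%. With the array SD as a covariate, 3 genes of eIF2 and its control were called lower and 4 higher, of the other ATF4 targets 5 lower and 1 higher, of the mitochondrial synthetases none lower and 1 higher, and of the other cytosolic synthetases none.

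The labelled cells carried the tumour markers of their line on every array. The summed linear signal of 10 such markers was 5841 to 11810 in estradiol with astrocytes, 9390 to 11060 in estradiol alone, 8668 to 11070 in vehicle with astrocytes and 8598 to 11200 in vehicle alone. In the pooled comparison 3 of these 10 fell, EGFR at -1.45 (adjusted p = 0.00714), CD44 at -0.93 (0.0148) and VIM at -0.48 (0.0371), and S100A4 rose at 0.62 (0.0165). S100A4 was at 1.13 with astrocytes under estradiol (limma, adjusted p = 0.0338) and at 0.11 under vehicle (0.751). Of 10 astrocyte markers 5 rose and 2 fell, where 24.5% of all genes rose and 23% fell, with GFAP at 0.95, GJB6 at 0.86, S100B at 0.66 and SLC1A3 at -0.94. Their summed signal was 323.6 to 427.5 in estradiol with astrocytes, 372.2 to 392.0 in estradiol alone, 328.8 to 375.4 in vehicle with astrocytes and 359.5 to 366.7 in vehicle alone, so the groups overlapped. The astrocytes were mouse cells, and the probe sets name human genes. How far mouse RNA adds to these signals was not tested, so they do not measure carry-over of astrocytes. The same holds for the markers of other brain cells below. Only 4 of the astrocyte markers lay above the median level, where 11.3% of all genes rose. Genes below that level thus rose more often than 24.5%, which is a low background for these markers.

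Of the 9 measured microglia and macrophage markers 4 rose (SPI1 at 1.28, AIF1 at 0.96, P2RY12 at 0.83 and ITGAM at 0.49), of 7 neuron markers 4 rose and 1 fell, of 7 oligodendrocyte markers 4 rose, and of 8 endothelial and fibroblast markers 1 rose, again where 24.5% of all genes rose. Above the median level lay 2 of these microglia and macrophage markers, 1 neuron marker, 3 oligodendrocyte markers and 1 endothelial or fibroblast marker. There 11.3% of all genes rose, so genes below that level rose more often than 24.5%. Whether these markers rose more often than genes of their own level was not tested. Array values have no true zero, so no marker can be given as absent. The part of these markers, and of the array range, in the members' differences was not tested beyond the fit with the array SD.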

How the data were processed

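Per the submitters' processing notes, RMA and Partek were used, with no versions, roles or order given. Deposited values were log2 signals, 1 per probe set and array. Of 33297 probe sets, 19181 carried 1 gene symbol in the platform table, 2055 several, and 12061 were not in it. Probe sets with several symbols were not used. Taking the probe set with the highest mean left 17958 genes, with no filter on low values. The comparisons used limma 3.58.1 under R 4.3.3 (lmFit on 4 group means over 12 arrays, contrasts.fit and eBayes), two-sided, with Benjamini-Hochberg adjustment over all genes of each contrast and a threshold of 0.05. The 6 contrasts share arrays. Errors after ± are standard errors of the fitted difference. With arrays there is no read depth, and their number sets the precision.

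The members, the other gene lists, the pooled contrast and the alternatives were chosen with earlier results of these data known. Every member may be named, and from each other list up to 4 called genes with the smallest p. PPP1R15B, ADM2, STC2 and ALDH1L2 were named after their values were seen. Promoter sequences are from RefSeq, GRCh38.p14. Alternatives were a replicate block, quantile normalization, median centring, genes above the median level, arrayWeights, averaged probe sets, trended robust eBayes, the array SD as a covariate, only the groups compared, no replicate 2 of either astrocyte group, and each array left out. The scripts were tested on simulated data. Between the astrocyte groups, deviations of same-number arrays correlated at 0.789, 0.756 and 0.214, and these groups were therefore also fitted with a replicate block. That pairing rests on the values, because no label explains the number.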

Additional observations from a re-analysis of the deposited data

How the results depend on the processing

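Counts of called members and medians of their log2 differences moved most in the comparison under estradiol. There 6 calls became 15 with a replicate block, 2 after quantile normalization, 30 with arrayWeights, 1 with the array SD as a covariate and 0 with only the groups compared, and the median of -0.88 became -0.40 after quantile normalization, -0.02 with the array SD and -0.31 without both arrays of narrow range (replicate 2 of each astrocyte group). Under vehicle, 0 calls became 9 with a replicate block, 22 with arrayWeights, 7 with the array SD, 10 with only the groups compared and 9 without both arrays of narrow range, and the median became 0.08 with the array SD. In the pooled comparison 16 calls became 29 with arrayWeights and 7 with the array SD, where the median was 0.02, and the replicate block gave 20. The interaction had 1 call with arrayWeights, which did not converge and gave 1 array a weight of 151. Leaving out each array gave 0 to 20 calls and medians of -1.05 to -0.31 under estradiol, 0 to 16 and -0.62 to -0.32 under vehicle, and 12 to 24 and -0.93 to -0.38 pooled. It gave 0 calls for estradiol against vehicle with astrocytes (medians -0.43 to 0.27), in cells alone (-0.03 to 0.14) and for the interaction (-0.47 to 0.19). Pooled signs turned with the array SD for 16 members, 14 of them called in neither fit. Among values called in either fit, signs turned for ATF4 (0.02) and IARS1 (0.23) there, and with arrayWeights for PHGDH (0.27 pooled, 0.26 under estradiol), SHMT2 (0.30) and NUPR1 (-0.49) under estradiol. The cause was not tested. Counts with arrayWeights, with only the groups compared and without single arrays are given without the share of all genes called. They therefore do not set the members apart from all genes. Same-number arrays of the other group pairs did not all deviate together (r = -0.493 for replicate 2 of estradiol alone and vehicle alone). The paired fit of the astrocyte groups, added after seeing the data, called 0 members for estradiol against vehicle, as without the block. DDIT4, VLDLR, ASNS, CTH and CARS1 were called in the pooled comparison with all arrays, in all 12 fits without an array, with the array SD, without both arrays of narrow range and after quantile normalization. With astrocytes, VLDLR (4.06 to 4.70), CTH (4.01 to 5.11) and ASNS (4.50 to 5.47) were at or near the medians of all probe sets on those arrays, 4.49 to 4.77. Such low signals leave little room to fall, which limits what their steadiness shows.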
